A study of Mus musculus with 6 samples.

Results

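The nuclear genes for subunits of respiratory complexes I to IV were compared between 3 haploid and 3 diploid samples of mouse embryonic stem (ES) cells, which come from early embryos and are pluripotent. Members were chosen by name. They were the genes whose symbol starts with Ndufa, Ndufb, Ndufc, Ndufs, Ndufv, Uqcr, Cox4i, Cox5, Cox6, Cox7 or Cox8, together with Sdha, Sdhb, Sdhc, Sdhd and Cyc1, and without the Ndufaf assembly factors. Of 18193 genes on the Affymetrix arrays 66 were members, read by 139 probe sets, and where a gene had several, the one with the brightest mean on the 6 arrays stood for it. Complex I had 36 members, complex II 4, complex III 9 and complex IV 17. The haploid lines, with 1 chromosome set, were HAP1 at passage 24 and HAP2 at passage 21, both of F1 CBAxB6 strain, and HTG1 at passage 11, of mixed transgenic strain. The diploid controls, called diploid replicates 1 to 3, were described as male, with strain 129Sv for replicates 1 and 2 and 129 for replicate 3. All were grown in 2i medium, which blocks the kinases MEK and GSK3, and RNA was taken at day 2 after passaging. No strain occurred in both groups, so strain and ploidy cannot be told apart, and the diploid labels call the replicates biological without naming a line. How many cells of the haploid lines still had 1 chromosome set when RNA was taken is not given in the sources used here.

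Oxidative phosphorylation is the way mitochondria make most ATP from oxygen. Complex I takes electrons from NADH and complex II from succinate. Both pass them through ubiquinone to complex III, then by cytochrome c to complex IV, which reduces oxygen to water. Complexes I, III and IV pump protons, and ATP synthase uses the gradient. Most subunits are encoded in the nucleus and some in mitochondrial DNA, so the complexes are built from both genomes. ES cells rely on glycolysis beside respiration, and their subunit genes are expressed at high levels.

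All values are log2 signals as deposited, made with RMA, which sets the arrays to a common distribution. A difference is therefore relative to the bulk of genes, and fewer cells of a type cannot be told apart from less RNA per cell. The arrays had median signals from 6.31 to 6.33, and their number limits the precision. All 8 ES cell markers, Pou5f1 and Nanog among them, lay above the median level of genes, 7.48, by their mean over the arrays. In the haploid lines Nanog rose 1.39-fold and Pou5f1 1.32-fold (limma adjusted p = 0.0227 and 0.0246), and the other 6 did not pass. Of the 8 differences 5 were positive and 3 negative. The lowest was that of Utf1, -0.63 (log2, limma adjusted p = 0.0909), with the groups apart. Of 4 neural markers Sox1 fell (limma adjusted p = 0.0169), and their linear signals summed to 452 to 491 on the haploid and 543 to 770 on the diploid arrays. All 8 fibroblast feeder markers lay below the median level. The feeder markers' linear signals summed to between 439 and 562 on the haploid arrays and between 928 and 1660 on the diploid arrays, 8 of 8 were lower in the haploid mean, and Col1a2 was the 1 that passed. A larger excess of 3' over 5' signal is a sign of less intact RNA. Beta-actin's 3' probe set exceeded its 5' one by 0.18 to 0.24 on the haploid and by 0.34 to 0.46 on the diploid arrays. The same difference of Gapdh overlapped, at -0.09 to -0.06 on the haploid and -0.09 to -0.01 on the diploid arrays. The part of these markers and controls in the results below was not tested.

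The complexes as wholes differed little, while single subunits moved in both directions. Of the 66 members, 9 rose and 3 fell in the haploid lines at an adjusted p of 0.05 in limma, adjusted over all genes. These 12 are 18.2% of the members, against 14.9% of all genes. By direction 13.6% of the members rose and 4.55% fell, against 7.92% and 6.96% of all genes. Among genes above the median level, where 61 of the members lay, 12.7% rose and 9.21% fell, so the members' share of rises lay near that background and their share of falls below it. The 3 haploid and 3 diploid values did not overlap for 26 members, or 39.4%, against 37.9% of all genes. Above the median level the groups were apart for 39.3% of the members, against 47.5% of genes. Of the 26, 17 were higher and 9 lower in the haploid lines, where 17.7% and 20.2% of all genes were. The median log2 difference was 0.02 over the members and -0.03 over all genes. By complex it was 0.02 for complex I, 0.07 for complex II, -0.03 for complex III and 0.12 for complex IV. Without probe sets that may match several transcripts it was -0.05 over 3 genes of complex II and 0.25 over 14 of complex IV, and after a further quantile normalization 0.01 for complex II and 0.07 for complex IV.

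The number of calls depended on single arrays. Without diploid replicate 3, 1 member rose and none fell; without diploid replicate 2, 2 rose and none fell; and without HAP2, 4 rose and none fell. Without HTG1, 6 rose and none fell. Without HAP1, 8 rose and 2 fell, and without diploid replicate 1, 7 rose and 2 fell. All genes lost calls too. With all arrays 1441 genes rose and 1266 fell, against 571 and 399 without diploid replicate 3. These counts were 678 and 518 without diploid replicate 2, 806 and 623 without HAP2, and 1111 and 886 without HTG1. They were 1395 and 1033 without HAP1, and 1274 and 1082 without diploid replicate 1. In simulated data of this design 13% of genes set to change by 0.5 (log2) passed, as did 65% of those set to change by 1. That simulation changed 200 of 18193 genes, whereas 2707 genes passed in the real data. The adjusted p depends on the share of genes that change, so the simulated rates need not hold here. Most member differences were below 0.5, and a member that did not pass is not shown to be equal between the groups.

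**Figure D1:**
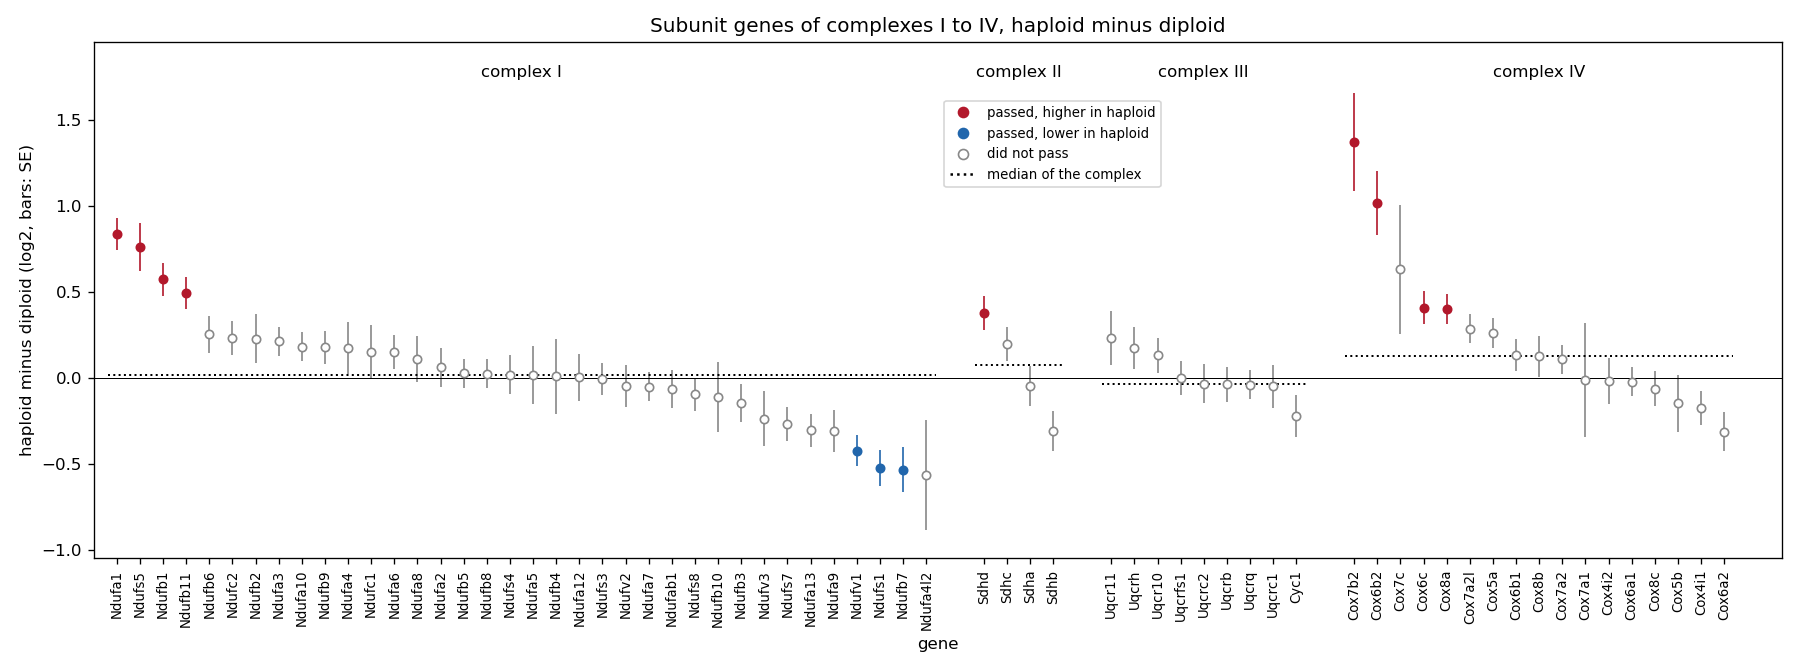
Log2 difference of haploid minus diploid samples for the 66 subunit genes, grouped by complex and ordered by size, with standard errors and the median of each complex as a dotted line. Filled points passed in limma. The medians lie between -0.03 and 0.12, and no complex III gene passed.

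In complex I, the NADH dehydrogenase, 4 of 36 members rose and 3 fell. The largest rise was in Ndufa1, an X-linked accessory subunit of the membrane arm. Ndufa1 stood at 13.77, 13.84 and 13.71 in HAP1, HAP2 and HTG1, against 13.04, 12.90 and 12.88 in diploid replicates 1, 2 and 3. The haploid values lay close together and all above the diploid ones, a 1.78-fold difference (log2 0.83 ± 0.09, SE, limma adjusted p = 0.00343). Ndufa1 was the 1 member that passed with any single array left out. Ndufb11, the other X-linked member and also an accessory subunit of the membrane arm, stood at 13.30, 13.32 and 13.13 in the haploid lines, against 12.81, 12.74 and 12.73 in the diploid samples. It rose 1.41-fold (limma adjusted p = 0.0179), with the groups apart. The limma adjusted p of Ndufb11 was 0.0639 without HAP2, 0.0664 without diploid replicate 2 and 0.074 without diploid replicate 3. Its 3 probe sets had differences between 0.49 and 0.81 (log2).

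Ndufs5, a small accessory subunit on the intermembrane side, rose 1.69-fold. Its values were 11.95, 11.95 and 11.72 in HAP1, HAP2 and HTG1, against 11.36, 10.92 and 11.07 in the diploid replicates, again without overlap (limma adjusted p = 0.0154). Leaving out HAP2 or diploid replicate 2 gave a limma adjusted p of 0.0538, and leaving out diploid replicate 3 gave 0.0688. A further probe set of Ndufs5, which the platform also assigns to its pseudogene Ndufs5-ps, differed by 0.34 and did not pass (limma adjusted p = 0.179). Ndufb1, another small accessory subunit, was read by 1 probe set of modest signal. It stood at 7.77, 7.92 and 7.72 in the haploid lines and at 7.30, 7.22 and 7.17 in the diploid samples. This 1.49-fold rise (limma adjusted p = 0.0121) did not pass without diploid replicate 3 (0.0581).

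The 3 subunits that fell were Ndufb7, Ndufs1 and Ndufv1. Ndufs1, the largest subunit of complex I, carries iron-sulfur clusters, and Ndufv1 binds NADH and the flavin that first accepts its electrons. Ndufs1 stood at 11.08, 10.86 and 10.83 in HAP1, HAP2 and HTG1, against 11.49, 11.39 and 11.46 in the diploid samples, 1.44-fold lower (limma adjusted p = 0.0196). Ndufv1 was at 12.04, 12.11 and 11.95 in the haploid lines and at 12.46, 12.44 and 12.48 in the diploid samples, 1.34-fold lower (limma adjusted p = 0.0225). The haploid values of both genes lay below every diploid value. Ndufs1 did not pass without HAP2 (0.0673) or HTG1 (0.0506) or without diploid replicate 2 (0.0576) or 3 (0.0778). Ndufv1 passed without diploid replicate 1 and did not pass without any other single array (limma adjusted p = 0.0506 to 0.0862). Another of its 3 probe sets, as bright as the brightest, differed by -0.14 (log2) and did not pass in the fit of all probe sets (limma adjusted p = 0.367). The mean of the 3 differed by -0.30 (limma adjusted p = 0.0508). Ndufb7, an accessory subunit on the intermembrane side, had 12.32, 12.25 and 11.89 in the haploid lines and 12.76, 12.65 and 12.66 in the diploid samples. It fell 1.45-fold (limma adjusted p = 0.0376). It still passed when HAP1 was left out, but not when any other array was (limma adjusted p = 0.0568 to 0.109).

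Complex I has a core of subunits that carry its cofactors and an outer set of accessory subunits. Among the 6 nuclear core subunits measured, Ndufs1, Ndufs3, Ndufs7, Ndufs8, Ndufv1 and Ndufv2, all 6 differences were negative and 2 passed. Their median was -0.18 (log2), with values of -0.27 for Ndufs7, -0.10 for Ndufs8, -0.05 for Ndufv2 and -0.01 for Ndufs3, none of which passed. Of the 30 other members of complex I, 4 rose and 1 fell, and their median was 0.04. The split into core and other subunits was made after the values were seen and has no test. Ndufs7 went the other way in its second probe set, as given below. Among complex I members above the median level the highest p-values were those of Ndufa12 and Ndufa5, accessory subunits that differed by 0.00 ± 0.14 and 0.01 ± 0.17 (log2, SE). Ndufa4l2, a paralogue of Ndufa4 known as a hypoxia-induced gene, had the lowest difference of complex I, -0.57 ± 0.32, and did not pass (limma adjusted p = 0.273). Its values were 7.51, 8.04 and 7.62 in the haploid lines and 8.92, 8.34 and 7.62 in the diploid samples, so the groups overlapped.

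In complex II, succinate dehydrogenase, both membrane anchors had positive differences and both catalytic subunits negative ones, and 1 of the 4 passed. Sdhd, an anchor subunit, stood at 12.04, 12.31 and 12.23 in HAP1, HAP2 and HTG1 and at 11.84, 11.80 and 11.81 in the diploid samples. Its 1.3-fold rise passed narrowly (limma adjusted p = 0.0499). It still passed when HAP1 was left out, but not when any other array was (0.0839 to 0.145). It also missed the threshold in 5 of 8 other settings (0.0542 to 0.0831). Sdhc, the other anchor, differed by 0.20 ± 0.10 (log2, SE, limma adjusted p = 0.231). The flavoprotein Sdha differed by -0.05 ± 0.12 (limma adjusted p = 0.815) and the iron-sulfur subunit Sdhb by -0.31 ± 0.11 (limma adjusted p = 0.114). Sdhb had 12.52, 12.43 and 12.17 in the haploid lines against 12.69, 12.68 and 12.68 in the diploid samples, without overlap.

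In complex III, the cytochrome bc1 complex, none of the 9 members passed in limma or at an unadjusted p of 0.05, and none had groups that did not overlap. The differences ran from -0.22 to 0.23 (log2), with standard errors up to 0.155. Cyc1, the cytochrome c1 that hands electrons to cytochrome c, had the lowest, at 12.93, 12.73 and 12.53 in the haploid lines and 13.03, 12.89 and 12.94 in the diploid samples. Uqcrfs1, the Rieske iron-sulfur protein, differed by 0.00 ± 0.10 (SE) and Uqcrc2, a core protein, by -0.03 ± 0.11.

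In complex IV, cytochrome c oxidase, 4 of 17 members rose and none fell, and 2 of the 4 were isoforms known mainly from testis. Cox6b2 is the testis isoform of a subunit on the intermembrane side, whose general form is Cox6b1. Cox6b2 stood at 12.18, 12.53 and 12.94 in HAP1, HAP2 and HTG1, against 11.47, 11.53 and 11.62 in diploid replicates 1, 2 and 3. Every haploid value was above every diploid one, and the haploid lines ranged over 0.76 (log2) against 0.15 in the diploid samples. It rose 2.02-fold (log2 1.01 ± 0.19, SE, limma adjusted p = 0.0155), with a limma adjusted p of 0.059 when either diploid replicate 2 or diploid replicate 3 was left out. Cox6b1 differed by 0.13 ± 0.09 and did not pass (limma adjusted p = 0.369). Cox7b2, a testis isoform of another small subunit, was dim, with 5.37, 6.49 and 5.73 in the haploid lines and 4.65, 4.19 and 4.63 in the diploid samples. The diploid mean of 4.49 lay below 4.80, the lowest lower quartile of the arrays, so no fold is given for its log2 difference of 1.37 ± 0.28 (limma adjusted p = 0.0224). Its limma adjusted p was 0.0799 without diploid replicate 2 and 0.0732 without diploid replicate 3. Cox7b, the general and X-linked form of that subunit, was not analysed here.

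The other risers of complex IV were Cox8a and Cox6c, small membrane subunits present in most tissues. Cox8a stood at 13.49, 13.38 and 13.39 in the haploid lines and at 13.10, 12.97 and 12.99 in the diploid samples, 1.32-fold higher (limma adjusted p = 0.0292). Cox6c stood at 13.68, 13.86 and 13.89 in the haploid lines and at 13.42, 13.34 and 13.45 in the diploid samples, 1.33-fold higher (limma adjusted p = 0.0349). Both had haploid values above all diploid values by a small margin. Cox8a passed without diploid replicate 1 and Cox6c without HAP1, but neither without any other single array (limma adjusted p = 0.0574 to 0.111). Cox6c had a limma adjusted p of 0.0549 after a further quantile normalization and 0.0704 by the mean of its probe sets. Cox5a, a subunit on the matrix side, differed by 0.26 (limma adjusted p = 0.0954) and the supercomplex factor Cox7a2l by 0.28 (limma adjusted p = 0.0702). Among members above the median level the highest p-values were those of Cox7a1 and Cox6a1, which differed by -0.01 ± 0.33 and -0.02 ± 0.09.

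Of the 8 isoform genes known mainly from muscle, heart, lung, testis or hypoxic cells, 2 rose, both described above, and none fell. The muscle and heart isoforms Cox6a2, Cox7a1 and Cox8b differed by -0.32, -0.01 and 0.12 (log2), the lung isoform Cox4i2 by -0.02 and the testis isoform Cox8c by -0.07. None of these 5 passed, with limma adjusted p of 0.108 or more. Cox6a2 had groups that did not overlap, at 7.17, 6.93 and 7.03 in the haploid lines and 7.32, 7.25 and 7.51 in the diploid samples. Cox7a1 was spread in both groups, at 9.28, 9.70 and 8.60 in the haploid lines and 9.77, 8.84 and 9.02 in the diploid samples. Cox7c, a general subunit, did not pass either, and its values of 8.21, 8.96 and 8.60 in the haploid lines stood beside 7.08, 8.38 and 8.42 in the diploid samples, where diploid replicate 1 was low.

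**Figure D2:**
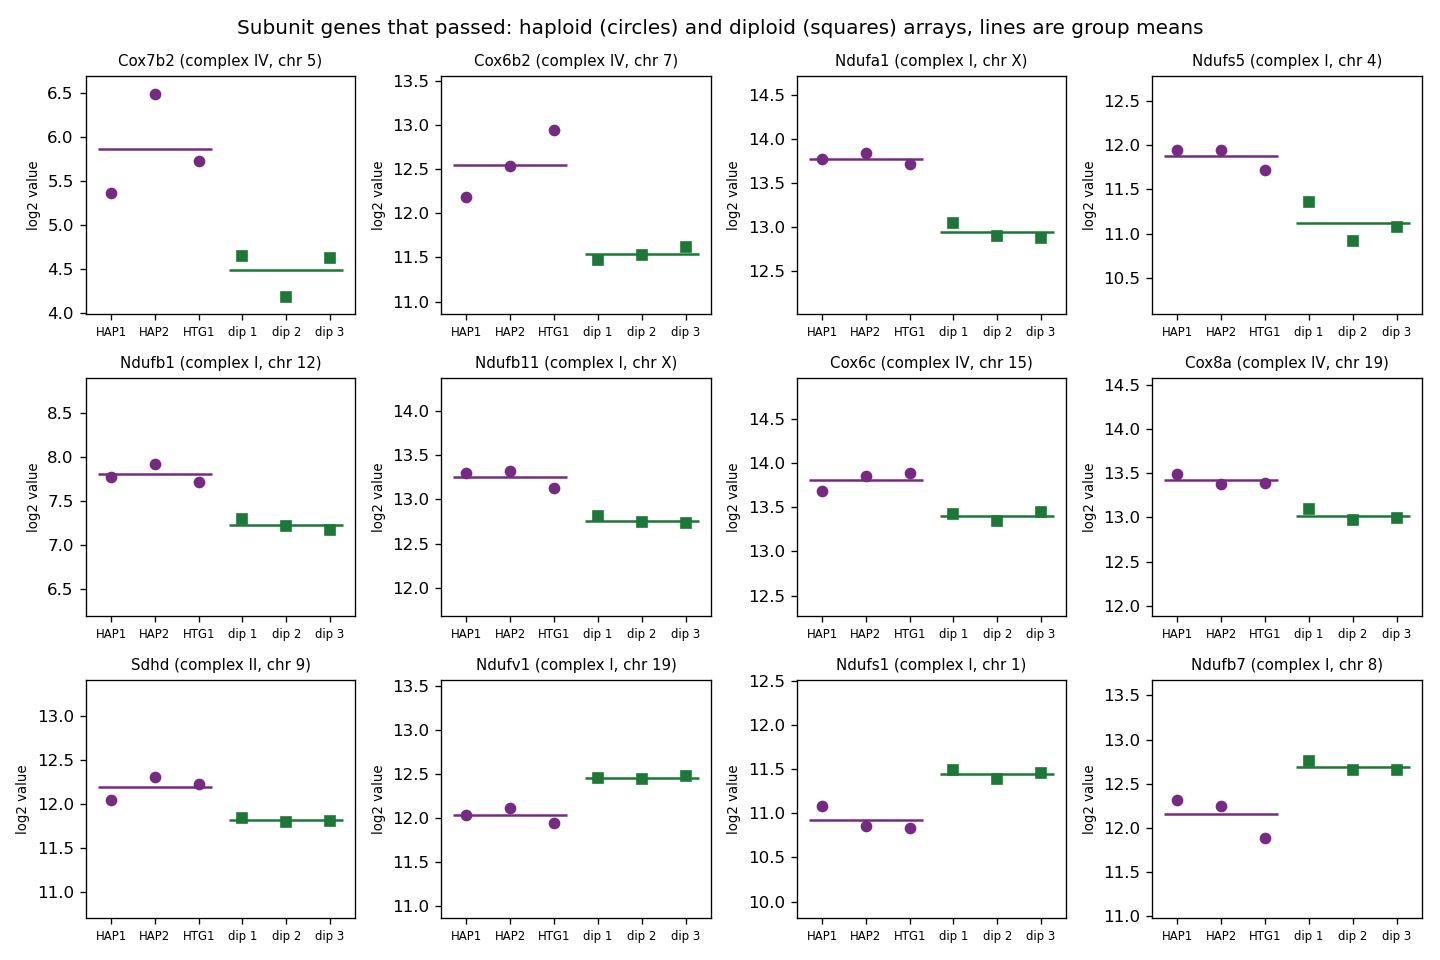
Log2 values of the 12 subunit genes that passed, on each array, with haploid lines as circles, diploid replicates (dip) as squares and group means as lines. Every panel spans the same log2 range, and in each the haploid and diploid values are apart; Cox6b2 runs from 12.18 to 12.94 among the haploid lines.

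The sequence before the gene start differed between the X-linked risers and the testis isoforms in its content of CG dinucleotides, the sites of DNA methylation, which are dense at most widely expressed genes. The 250 bases before the start of Ndufa1, Ndufb11, Cox6b2, Cox7b2 and, for comparison, Cox6b1, which did not pass, are given from RefSeq (GRCm38.p6). All 5 lie on the minus strand and are written 5′ to 3′ along the gene, with each CG in capitals.
Ndufa1 chrX:37191239-37191488: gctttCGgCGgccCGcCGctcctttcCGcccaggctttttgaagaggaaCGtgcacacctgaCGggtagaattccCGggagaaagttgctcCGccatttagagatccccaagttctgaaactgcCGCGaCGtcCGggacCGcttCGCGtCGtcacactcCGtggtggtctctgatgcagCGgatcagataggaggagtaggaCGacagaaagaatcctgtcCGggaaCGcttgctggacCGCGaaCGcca
Ndufb11 chrX:20617620-20617869: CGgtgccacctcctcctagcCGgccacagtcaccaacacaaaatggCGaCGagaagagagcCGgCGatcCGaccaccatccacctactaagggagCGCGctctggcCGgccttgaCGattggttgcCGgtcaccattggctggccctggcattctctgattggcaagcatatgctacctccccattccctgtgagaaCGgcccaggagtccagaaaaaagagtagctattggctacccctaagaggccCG
Cox6b2 chr7:4753095-4753344: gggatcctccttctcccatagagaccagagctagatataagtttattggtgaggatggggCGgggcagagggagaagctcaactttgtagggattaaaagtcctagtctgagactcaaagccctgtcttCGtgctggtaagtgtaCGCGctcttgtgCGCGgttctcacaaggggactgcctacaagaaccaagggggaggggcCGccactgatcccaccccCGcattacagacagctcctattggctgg
Cox7b2 chr5:71548206-71548455: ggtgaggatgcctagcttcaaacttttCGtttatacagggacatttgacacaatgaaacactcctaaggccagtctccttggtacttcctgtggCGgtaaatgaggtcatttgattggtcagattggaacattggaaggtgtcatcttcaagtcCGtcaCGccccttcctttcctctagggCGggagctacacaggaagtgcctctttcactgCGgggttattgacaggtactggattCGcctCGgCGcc
Cox6b1 chr7:30626115-30626364: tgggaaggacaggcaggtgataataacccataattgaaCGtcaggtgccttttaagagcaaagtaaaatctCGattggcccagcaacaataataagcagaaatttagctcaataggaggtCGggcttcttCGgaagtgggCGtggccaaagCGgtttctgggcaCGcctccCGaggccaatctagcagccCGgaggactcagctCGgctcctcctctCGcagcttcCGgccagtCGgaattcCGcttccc
These windows held 25 CG in Ndufa1, 14 in Ndufb11, 8 in Cox6b2, 9 in Cox7b2 and 14 in Cox6b1. Windows were found for 52 of the 66 members. Their median was 14 CG, against 6 over all 32851 windows of the same length, and 6 over the 4 tissue isoforms with a window. Low counts were not particular to the isoforms, since some general subunits had few CG too, with 4 in Ndufc2, 5 in Uqcr10 and 8 in Uqcrc1. The motif of the respiratory gene factor NRF1 was searched as TGCGCA, that of ETS factors such as GABPA as CCGGAAG and that of YY1 as AAGATGGC, each on both strands. They were in 11, 8 and 0 of 54 member windows, or 20.4%, 14.8% and 0%, against 6.43%, 6.91% and 1.56% of all windows. The NRF1 and ETS letters each hold a CG, and all windows are not matched to the members in CG content. The part of CG content in these shares was not tested. Only exact letters were counted, so sites that differ by a base were missed. Of the 8 windows of members that rose, 2 held the NRF1 letters and 1 the ETS letters. Of the 5 windows printed, that of Cox6b1 held the ETS letters, and the other 4 held the exact letters of none of the 3 motifs.

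The place of a member in the genome went with the direction of some calls. Genes of X as a group were higher and genes of chromosomes 8 and 11 lower in the haploid lines, so members were set beside their chromosomes. Both X-linked members rose, as did 40.7% of all X-linked genes, of which 1.46% fell. Of X-linked genes above the median level, where both members lay, 72.1% rose. The median difference of those genes was 0.77 (log2), against 0.83 for Ndufa1 and 0.49 for Ndufb11. With the shift of X subtracted, 0.74, the difference of Ndufa1 was 0.09 (limma adjusted p = 0.517) and that of Ndufb11 turned to -0.25 (limma adjusted p = 0.12). That value of Ndufb11 is from its brightest probe set. Another of its probe sets differed by 0.81 before subtraction, more than the shift of X. All 3 members on chromosome 8 had haploid values below every diploid value, as did 279 of 505 chromosome 8 genes above the median level. They were Ndufb7 at -0.54, the accessory subunit Ndufa13 at -0.31 and Cox4i1, the general form of a regulatory subunit of complex IV, at -0.18, and only Ndufb7 passed. The median of chromosome 8 genes above the median level was -0.32, and 32.9% of them fell, as did 21.2% of all chromosome 8 genes. With that shift subtracted Ndufb7 differed by -0.19 and did not pass (limma adjusted p = 0.352). The members on chromosome 11, both of complex III, lay above their chromosome's median of -0.27, with Uqcrq at -0.04 and Uqcr10 at 0.13. Uqcrq was within the quartiles of that chromosome's genes above the median level, -0.50 and -0.01, and Uqcr10 was above them. With the shift of chromosome 11 subtracted, Uqcr10 passed at 0.43 by its brightest probe set (limma adjusted p = 0.0359). Its dimmer probe sets, low in HTG1, differed by -0.99 and -1.02 before subtraction and did not pass. On the other chromosomes 7 of 59 members rose and 2 fell, or 11.9% and 3.39%, against 7.55% and 5.06% of genes on autosomes other than 8 and 11. These shares are not matched by level, since 54 of the 59 members but only 7481 of those 15029 genes lay above the median level. Of genes of any chromosome above that level 12.7% rose and 9.21% fell.

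**Figure D3:**
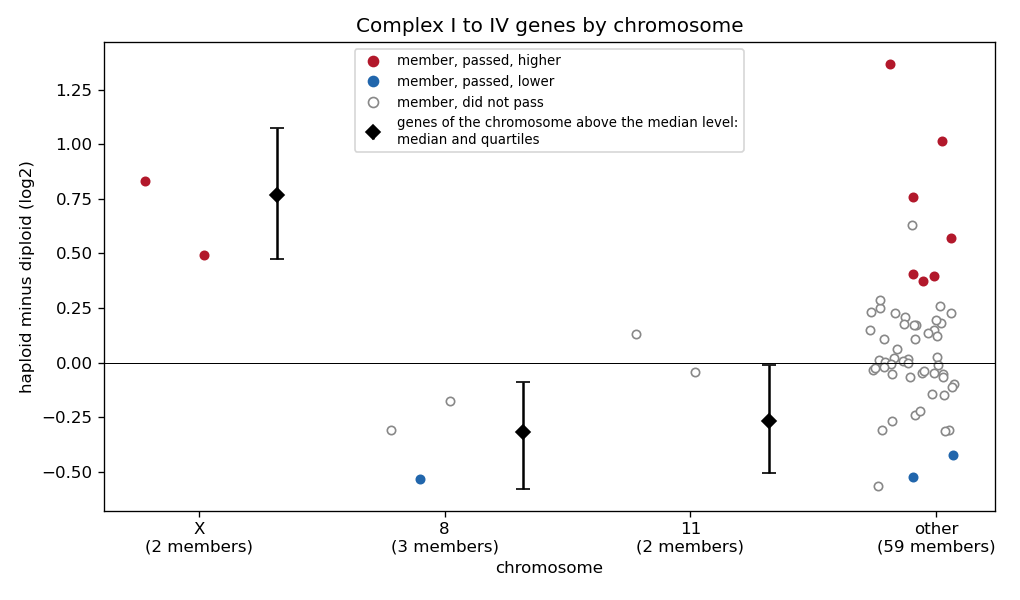
Log2 difference of haploid minus diploid samples for the members on X, 8, 11 and other chromosomes (circles), with the median and quartiles of the chromosome's genes above the median level (diamonds). Both X members lie above 0 and all 3 members on 8 below 0, while those on 11 lie at -0.04 and 0.13.

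Within the groups, many members shared a pattern over the arrays. After each gene was centred on its mean over the 6 arrays, the median of the members was 0.08 in HAP1, 0.07 in HAP2 and -0.06 in HTG1, and 0.04, -0.05 and -0.02 in diploid replicates 1, 2 and 3. Genes above the median level had medians between -0.03 and 0.03 on all arrays. HTG1 had the lowest of the 3 haploid values for 47 of 66 members, or 71.2%, against 39% of genes above the median level. By complex the HTG1 median was -0.14 in complex I, -0.08 in complex II, -0.08 in complex III and 0.03 in complex IV. Cox6b2 and Cox6c went against this, with their highest value in HTG1. In the diploid group replicate 1 was highest for 39 members, or 59.1%, against 45.7% of genes above the median level. Diploid replicate 2 was lowest for 40 members, or 60.6%, against 36% of those genes. The range among the haploid lines had a median of 0.25 (log2) over the members, against 0.14 among the diploid samples. Over genes above the median level these medians were 0.28 and 0.24.

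Part of the diploid pattern lay on chromosome 6. Its 4 members, the accessory subunits Ndufa5, Ndufa9 and Ndufb2 and the complex IV-associated Ndufa4, were all highest, within the diploid group, in diploid replicate 1. Ndufa4 stood at 13.54, 13.54 and 13.44 in HAP1, HAP2 and HTG1, against 13.66 in diploid replicate 1 and 13.17 in both other diploid replicates. Ndufb2 had 12.10 in diploid replicate 1 and 11.71 and 11.70 in the others. Of the chromosome 6 genes above the median level, 87.5% were highest in diploid replicate 1. The other 62 members were highest there in 56.5% of cases, against 45.7% of all genes above the median level.

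**Figure D4:**
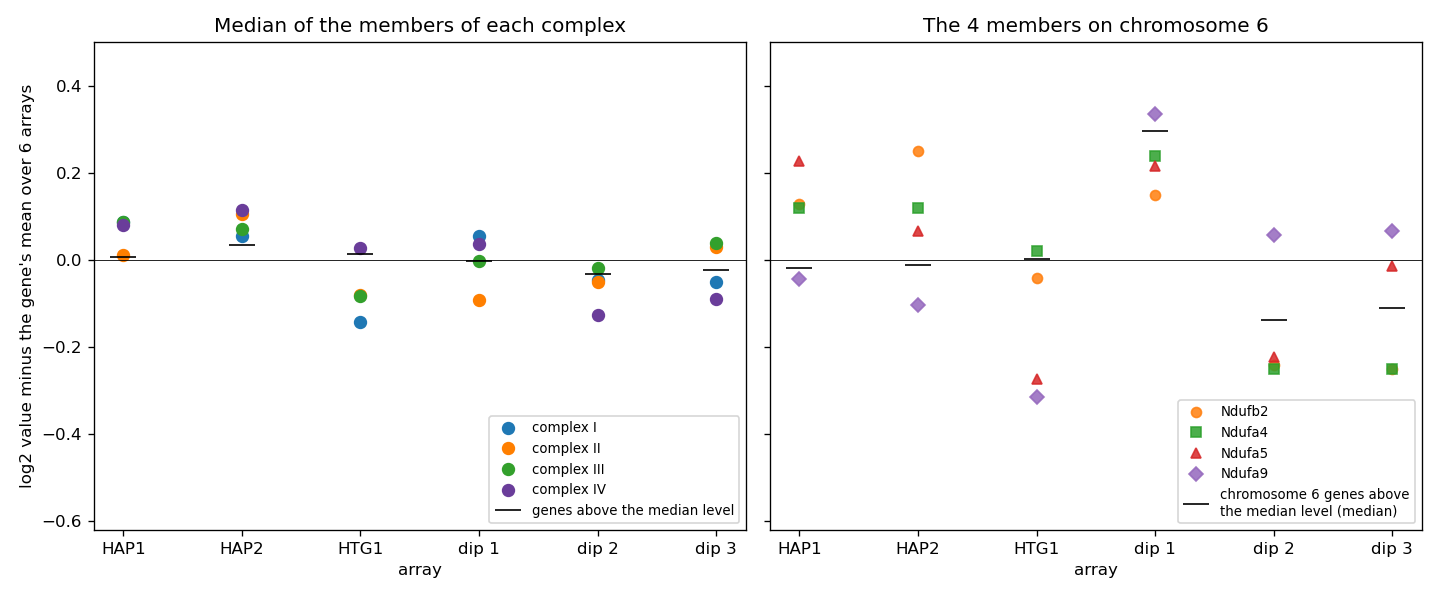
Log2 values centred per gene on each array: on the left the median of each complex, on the right the 4 members on chromosome 6, with short lines for the median of genes above the median level. The HTG1 medians of complexes I to III lie below 0, and the chromosome 6 members are highest in diploid replicate 1 within the diploid group.

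Several genes had more than 1 probe set. For 37 members 2 or more probe sets exceeded the median signal. The median spread of their differences was 0.14, and no member rose by one probe set and fell by another. Uqcr10, a small subunit of complex III, stood apart. Its brightest probe set had 12.89, 12.91 and 12.69 in HAP1, HAP2 and HTG1, against 12.62, 12.71 and 12.77 in the diploid samples. A second had 10.72, 10.62 and 7.11 in the haploid lines, against 10.73, 10.34 and 10.35, and the last 10.68, 10.55 and 6.21, against 10.66, 9.94 and 9.92. HTG1 was thus low in the dimmer pair and not in the brightest. Ndufs7, which carries an iron-sulfur cluster next to ubiquinone, had 11.69, 11.62 and 11.43 in the haploid lines by its brightest probe set, against 11.87, 11.82 and 11.86 in the diploid samples. Its second had 11.74, 11.62 and 11.54, against 11.29, 11.30 and 11.42. The groups were apart in both, in opposite directions, and neither passed. Ndufab1, the mitochondrial acyl carrier protein, differed by -0.07 in its brightest probe set, while a dimmer one, at 7.04, 7.37 and 6.92 in the haploid lines and at most 6.16 in the diploid samples, was higher by 1.02 (limma adjusted p = 0.00614). Ndufc2 did not pass by its brightest probe set, at 0.23 (limma adjusted p = 0.185). Its next brightest rose by 0.53 and 0.45 (limma adjusted p = 0.0179 and 0.0296), and its dimmest differed by -0.24 and did not pass.

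**Figure D5:**
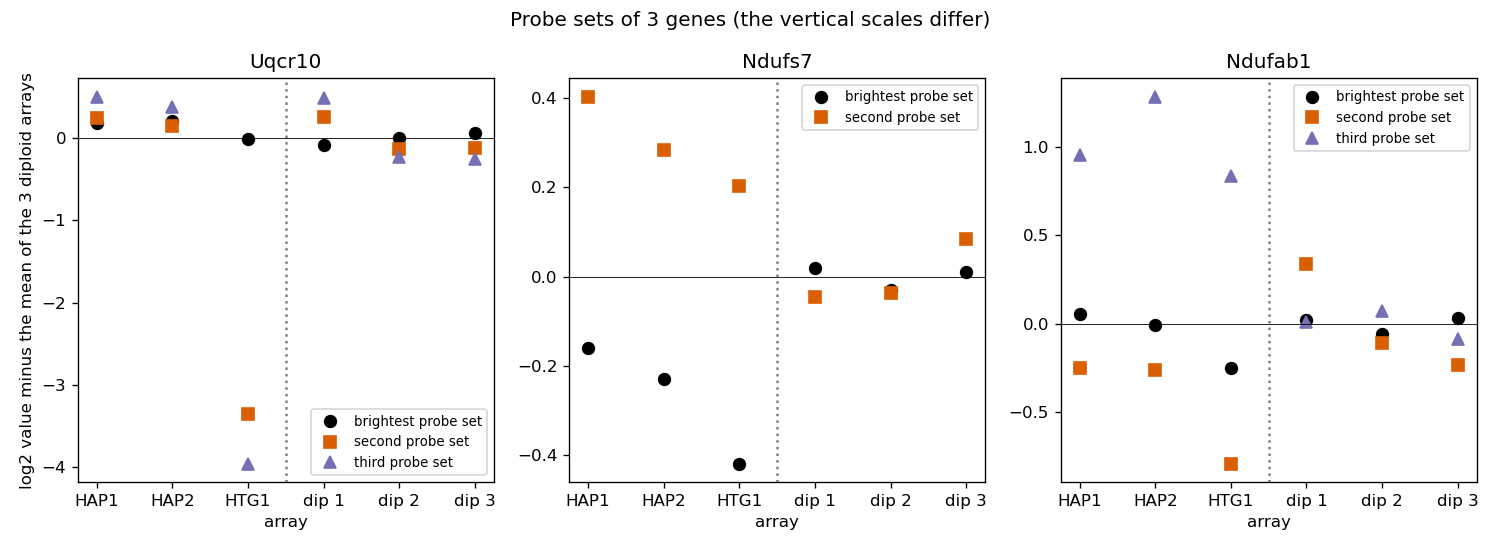
Log2 values of the probe sets above the median signal for Uqcr10, Ndufs7 and Ndufab1, relative to the mean of the 3 diploid replicates (dip), with the vertical scales set per gene. The dimmer probe sets of Uqcr10 are low in HTG1 alone, and those of Ndufs7 lie on opposite sides of 0 in the haploid lines.

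Genes around the 4 complexes were taken from lists of their partners. Their shares stand beside 7.92% of all genes that rose and 6.96% that fell. Among genes above the median level, where most genes of each list lay, 12.7% rose and 9.21% fell. Of 18 ATP synthase genes 1 rose, or 5.56%, and none fell, with a median of 0.05 (log2). The riser was the small subunit Atp5md, at 1.29-fold (limma adjusted p = 0.0465), which still passed when HTG1 was left out, but not when any other array was (0.0822 to 0.138). Of 51 assembly factors 4 rose and 8 fell, or 7.84% and 15.7%, with a median of -0.04. Timmdc1, which builds the membrane arm of complex I, stood at 8.11, 8.07 and 7.97 in HAP1, HAP2 and HTG1 and at 9.42, 9.40 and 9.27 in the diploid samples. It fell 2.48-fold (log2 -1.31 ± 0.09, SE, limma adjusted p = 0.0013), and passed with any single array left out. Bcs1l, which inserts the Rieske protein into complex III, fell 1.58-fold (limma adjusted p = 0.0176), with 0.0721 without diploid replicate 3. Hccs, the X-linked enzyme that attaches heme to cytochrome c, rose 1.8-fold (limma adjusted p = 0.00288) and stood at 0.11 with the shift of X subtracted. Cox16, needed to build complex IV, rose 1.61-fold by its brightest probe set (limma adjusted p = 0.0161), with 0.0553 to 0.07 when HAP2, diploid replicate 2 or diploid replicate 3 was left out. The mean of its probe sets differed by 0.19 (limma adjusted p = 0.22). Of the 8 that fell 6 lay on chromosome 8 or 11, where 11 of the 51 lie, and 1 of these 6, Coasy, entered the list by its name and makes coenzyme A.

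Of 19 electron carriers and enzymes that feed ubiquinone 2 rose and 3 fell, or 10.5% and 15.8%, with a median of 0.08. Dhodh, which links pyrimidine synthesis to the chain and lies on chromosome 8, fell 1.79-fold (limma adjusted p = 0.0161), and Coq5, of ubiquinone synthesis, 1.58-fold (limma adjusted p = 0.0193). Coq10b and Coq7, also of the ubiquinone pathway, rose 1.71-fold and 1.41-fold (limma adjusted p = 0.0105 and 0.0357). Dhodh passed with any single array left out, but not with the shift of chromosome 8 subtracted (limma adjusted p = 0.0775). Coq10b did not pass without diploid replicate 3 (0.0526), Coq5 not without HAP2 (0.0506) or diploid replicate 2 (0.0548) or 3 (0.0595), and Coq7 passed when HTG1 was left out but not when any other array was (0.0805 to 0.111). Of 13 tricarboxylic acid cycle genes 2 rose and 1 fell, or 15.4% and 7.69%, with a median of 0.10. Idh3g, an X-linked subunit of isocitrate dehydrogenase, rose 1.86-fold (limma adjusted p = 0.00248), with 0.16 left on the log2 scale once the shift of X was subtracted. Idh2, the mitochondrial NADP-dependent form, rose 1.74-fold (limma adjusted p = 0.0114), with 0.0553 without diploid replicate 3, and differed by -0.01 (0.958) without probe sets that may match several transcripts. Ogdh, of the oxoglutarate dehydrogenase complex, fell 1.41-fold (limma adjusted p = 0.0217), with 0.0774 without diploid replicate 2 and 0.0807 without diploid replicate 3. With the shift of chromosome 11 subtracted it differed by -0.20 (limma adjusted p = 0.223). Of 22 regulators of mitochondrial gene expression 1 rose and 2 fell, or 4.55% and 9.09%, with a median of -0.05. Polrmt, the mitochondrial RNA polymerase, fell 1.52-fold (limma adjusted p = 0.0121) and passed with any single array left out. Polg2, a subunit of the mitochondrial DNA polymerase, fell 1.42-fold (limma adjusted p = 0.0311) and passed when HAP2 was left out but not when any other array was (0.0565 to 0.104). It lies on chromosome 11 and did not pass with the shift of that chromosome subtracted. Gabpb1, the partner of GABPA, rose 1.47-fold (limma adjusted p = 0.00955), and the mean of its probe sets differed by 0.255 (limma adjusted p = 0.203).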

How the data were processed

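RNA of 3 haploid and 3 diploid ES cell samples was measured on 1 Affymetrix array each. The deposited values are log2 signals per probe set, computed by RMA according to the deposited series' processing notes from the submitters, whose settings and software are not stated in the sources used here. Of 45101 probe sets, 64 controls were left out, 34945 had 1 gene symbol in GEO's platform annotation, 932 several and 9160 none, and only the first kind was named. A gene was its probe set with the highest mean over the 6 arrays. Chromosomes came from RefSeq (GRCm38.p6) through Entrez numbers, matched for 66 of 66 members. The haploid arrays were tested against the diploid ones by limma (version 3.58.1, under R 4.3.3; lmFit and eBayes, two-sided, no covariate, no filter), Benjamini-Hochberg adjusted over 18193 genes at 0.05. The p-values set the difference of the groups against the spread between arrays of a group. In the haploid group that spread includes differences of line, strain and passage. In the diploid group, whose labels name no line, it may be technical. The fit was tested on simulated data with 200 changed genes, where 4.9% of calls were unchanged genes. Named were members that passed with groups apart, X-linked members, tissue isoforms, the 2 with the highest p per complex among those above the median level, and up to 4 genes per related list. Other members named were chosen after their values were seen. Members and lists were chosen with earlier results of these data known. Alternatives were other normalizations, subtracted chromosome shifts, brighter genes only, other choices of probe sets, other variance models and omission of each array.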

Additional observations from a re-analysis of the deposited data

How the results depend on the processing

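The 14 alternatives gave 906 member values, of which 53 lost a call and 9 gained one. Only the 12 members that passed could lose a call, so the 53 losses are to be set against the values of those 12 and not against all 906. Sdhd lost its call in 10 alternatives, Cox6c in 8, and Ndufb7 and Ndufv1 in 7 each. Ndufb11, by its brightest probe set, turned to -0.249 with chromosome shifts subtracted. Idh2 turned to -0.01 without probe sets named _s_, _x_ or _a_, which may match several transcripts. A further 64 differences of members changed sign with no call in either fit. Without those probe sets, 0 members fell, the median of complex II was -0.048 over 3 genes and that of complex IV 0.25 over 14. With 1 array left out, 571 to 1395 genes rose and 399 to 1082 fell, 1 to 8 members rose and 0 to 2 fell, and the medians were -0.021 to 0.083 for complex I, 0.04 to 0.132 for complex II, -0.061 to 0.043 for complex III and 0.09 to 0.187 for complex IV. In the other settings the members that rose numbered 6 to 11 and those that fell 0 to 4. Fewer samples lower the power of these fits, and the cause of the other changes was not tested. With Ndufa4 and Ndufa4l2 counted in complex IV, the medians moved by less than the spread between arrays. No paired analysis was possible because the haploid labels name the lines HAP1, HAP2 and HTG1 and carry no replicate number shared with the diploid samples. Dim probe sets such as that of Cox7b2 limit what can be read of a fold.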

Other observations

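Cyct, the testis form of cytochrome c, stood at 10.57 in HAP1, 11.26 in HAP2 and 8.31 in HTG1, against 9.57, 9.67 and 9.84 in diploid replicates 1, 2 and 3. Its haploid lines lay on both sides of the diploid samples, and its difference of 0.35 ± 0.68 (log2, SE) did not pass (limma adjusted p = 0.764). Cycs, the general form, had 13.10, 13.10 and 12.87 in the haploid lines and 13.33, 12.76 and 12.82 in the diploid samples. Cyct was chosen after its values were seen. Among the probe sets whose name the platform shares between a member and another gene, those of Ndufb4 differed by 0.27 and 0.30 (log2), with 12.71, 12.74 and 12.31 in HAP1, HAP2 and HTG1 and 12.47, 12.22 and 12.25 in the diploid samples for the first. Those of Ndufs6 and Ndufa11 had differences of -0.04 and of 0.15 and 0.24. None of these 5 passed in the fit of all probe sets (limma adjusted p = 0.161 to 0.799).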
